A study of Mus musculus with 10 samples.

Results

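The clustered histone genes encode the linker histone H1 and the core histones H2A, H2B, H3 and H4 that package DNA as it is copied. They were taken as the protein-coding genes of the GENCODE M21 annotation (mouse build GRCm38) whose symbols place them in the Hist1, Hist2, Hist3 or Hist4 group, each represented by 1 principal transcript. The annotation holds 67 such genes, and 64 of them were among the 26227 genes analysed. Of these 64, 6 encode H1, 17 encode H2A, 16 encode H2B, 12 encode H3 and 13 encode H4. They lie on chromosome 13 (51 genes), chromosome 3 (10 genes), chromosome 11 (2 genes) and chromosome 6 (Hist4h4, 1 gene), and 62 have a single exon.

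The 10 RNA libraries came from the ER-Hoxa9-Lys-GFP line, a mouse myeloid progenitor culture of the C57BL/6 strain, to follow how cells become committed to myeloid differentiation. As background, the Hoxa9 fusion in these cells works while estradiol (E2) is present and holds them as dividing progenitors. The untreated group was kept in E2, the 24h, 40h and 72h groups were without E2 for 24, 40 and 72 h and then with E2 again for 96, 80 and 48 h, and the 120h group was without E2 for 120 h. Every group had 2 libraries of this same line, which carries the fusion and the reporter in all groups, controls included. Whether those 2 were grown as separate cultures is not in the labels, and a p-value here then reflects only how far the 2 libraries of a group lie apart, possibly for technical reasons.

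Replication-dependent histone genes work as a set. Their transcription starts as cells enter S phase, through the coactivator Npat, and their mRNAs end in a short stem-loop that is bound by Slbp in place of the poly(A) tail of other mRNAs. When DNA replication stops, these mRNAs are degraded. Some of the genes are also known to give mRNAs with a poly(A) tail in differentiated cells. The labels name a TruSeq RNA kit but not whether RNA was chosen by its poly(A) tail, a step that leaves out mRNAs without one, and its part in the levels was not tested.

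The stem-loop was found in 44 of the 64 transcripts, and 14 of the 20 without it have no base after the stop codon in the annotation. It took 8 forms, of which 1 stood in 24 transcripts and the next in 7. In the 43 single-exon transcripts among them, it began 21 to 58 bases after the stop codon, with a median of 32. The forms of 9 genes that the results turn on are shown here from GRCm38, with 5 bases on either side, and the capitals mark the paired arms of the stem.
Hist1h1c (chr13:23739507-23739532, + strand): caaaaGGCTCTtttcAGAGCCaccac
Hist2h2aa2 (chr3:96239779-96239804, - strand): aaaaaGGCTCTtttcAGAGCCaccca
Hist3h2a (chr11:58955167-58955192, + strand): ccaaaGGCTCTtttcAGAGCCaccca
Hist1h2bg (chr13:23571838-23571863, + strand): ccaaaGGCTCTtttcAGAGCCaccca
Hist1h2bj (chr13:22043633-22043658, + strand): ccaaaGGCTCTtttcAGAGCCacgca
Hist1h3c (chr13:23745042-23745067, - strand): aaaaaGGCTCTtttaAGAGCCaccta
Hist1h3a (chr13:23761885-23761910, - strand): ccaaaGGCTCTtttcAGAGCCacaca
Hist1h4d (chr13:23581945-23581970, + strand): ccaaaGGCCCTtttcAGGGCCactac
Hist1h4i (chr13:22040961-22040986, - strand): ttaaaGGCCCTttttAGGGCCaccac
The H4 genes differ from the others in the arms, and Hist1h3c and Hist1h4i differ from the rest in the loop. Hist1h2bc and Hist2h2be, the most abundant H2B genes in untreated cells, hold no stem-loop in the annotated transcript.

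A poly(A) signal, AATAAA, stood in the last 60 bases of 11 of the 64 transcripts. It is shown in capitals, within 30 bases, for the 3 tested genes whose listed transcript version is the annotated one.
Hist1h1c (chr13:23740330-23740359, + strand): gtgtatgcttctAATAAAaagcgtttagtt
Hist2h2be (chr3:96223705-96223734, + strand): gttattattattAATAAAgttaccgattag
Hist3h2a (chr11:58956785-58956814, + strand): aggtatatgcccAATAAAataagagtacgt
All 3 are long transcripts for this family, with 880, 2192 and 1700 bases after the stop codon for Hist1h1c, Hist2h2be and Hist3h2a in that order.

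Levels are RPKM, that is reads per unit of transcript length and of sequencing depth, which was 173620000 to 204390000 reads. The histone genes together held 9989 to 21126 reads a library, and a tested one had a median of 120. All 8 myeloid progenitor markers were present in the untreated libraries, at 1.62 to 2433 RPKM, but they did not move together. In the 120h libraries Kit, Cd34, Flt3, Myb and Mpo lay below the untreated libraries (Kit 26.7 and 15.4 against 152 and 158 RPKM), and Spi1, Csf1r and Ptprc lay above them (Csf1r 199 and 285 against 1.62 and 1.7 RPKM). The summed RPKM of 6 neutrophil granulocyte markers was 19900 and 19000 in the 120h libraries, 503 and 739 in the 72h libraries, 48.5 and 41.6 in the 40h libraries, 10.6 and 11.5 in the 24h libraries, and 4.09 and 4.18 in the untreated libraries. B and T cell markers summed to at most 0.295 RPKM, fibroblast markers to at most 0.34 RPKM and germ cell markers to at most 0.705 RPKM in any library, and the 7 erythroid and megakaryocyte markers summed to 6.88 to 19.2 RPKM. The neutrophil sum was thus above the untreated range in every group with a withdrawal, most in the 120h group. In the 24h and 40h libraries most of it was 1 gene, Elane, at 8.25 and 8.59 and at 44.6 and 37.5 RPKM. The 24h values of Ngp and Ltf lay within the untreated range. Elane itself had 262 and 295 RPKM in the 72h libraries and 94.0 and 32.2 RPKM in the 120h libraries. The part of the cells behind these markers in the histone results was not tested. In RNA from whole cultures, fewer cells of a type and less RNA per cell cannot be told apart.

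Histone levels were low. The highest value of any member was 15.2 RPKM, for Hist1h2bc in an untreated library, 9 members reached 5 RPKM in some library, and 21 never reached 1 RPKM. Summed over the 64 genes, histone RPKM was 128 and 110 in the untreated libraries, 121 and 92.1 in the 24h libraries, 109 and 111 in the 40h libraries, 75.7 and 74.5 in the 72h libraries, and 65.1 and 51.5 in the 120h libraries. The 72h and 120h libraries lay below every other library, at 63.0% and 48.9% of the untreated mean, while the 24h and 40h libraries overlapped the untreated range.

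The class sums took different courses. The H2B sum was 50.7 and 46.8 RPKM in the untreated libraries, 46.3 and 38.0 RPKM in the 24h libraries, 36.1 and 37.9 RPKM in the 40h libraries, 21.2 and 19.8 RPKM in the 72h libraries, and 16.8 and 14.1 RPKM in the 120h libraries. H2B was thus at 42.1% of the untreated mean in the 72h group and at 31.7% in the 120h group. The H4 sum stood at 93.2% of the untreated mean in the 72h group (19.8 and 20.1 RPKM) and at 41.7% in the 120h group (8.95 ± 3.14 RPKM, SD, n = 2), against 21.4 ± 1.52 RPKM in the untreated group. H3 was at 66.5% in the 72h group (11.3 ± 0.532 RPKM) and 30.3% in the 120h group (5.15 ± 2.17 RPKM), against 17.0 ± 3.00 RPKM in the untreated group. H2A was at 61.9% in the 72h group (11.4 ± 0.716 RPKM) and at 91.1% in the 120h group (16.7 ± 2.27 RPKM), against 18.4 ± 4.42 RPKM in the untreated group, and the untreated and 120h ranges overlapped. H1 stayed within 87.3% to 98.1% of the untreated mean in all groups. The H1 and H2A sums of the 120h group lean on 1 gene each, Hist1h1c with 8.92 ± 0.416 RPKM and Hist2h2aa2 with 8.78 ± 0.846 RPKM (SD, n = 2). The H4 and H2B sums lean on few genes too. Hist1h4i averaged 10.7 RPKM of the H4 sum in the 72h group and 7.74 RPKM in the untreated group. Hist1h2bc, Hist2h2be and Hist1h2bg averaged 14.3, 7.59 and 5.17 RPKM of the untreated H2B sum. In the 72h group these H2B genes averaged 2.78, 2.28 and 1.67 RPKM. Sums without these genes were not computed.

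**Figure D1:**
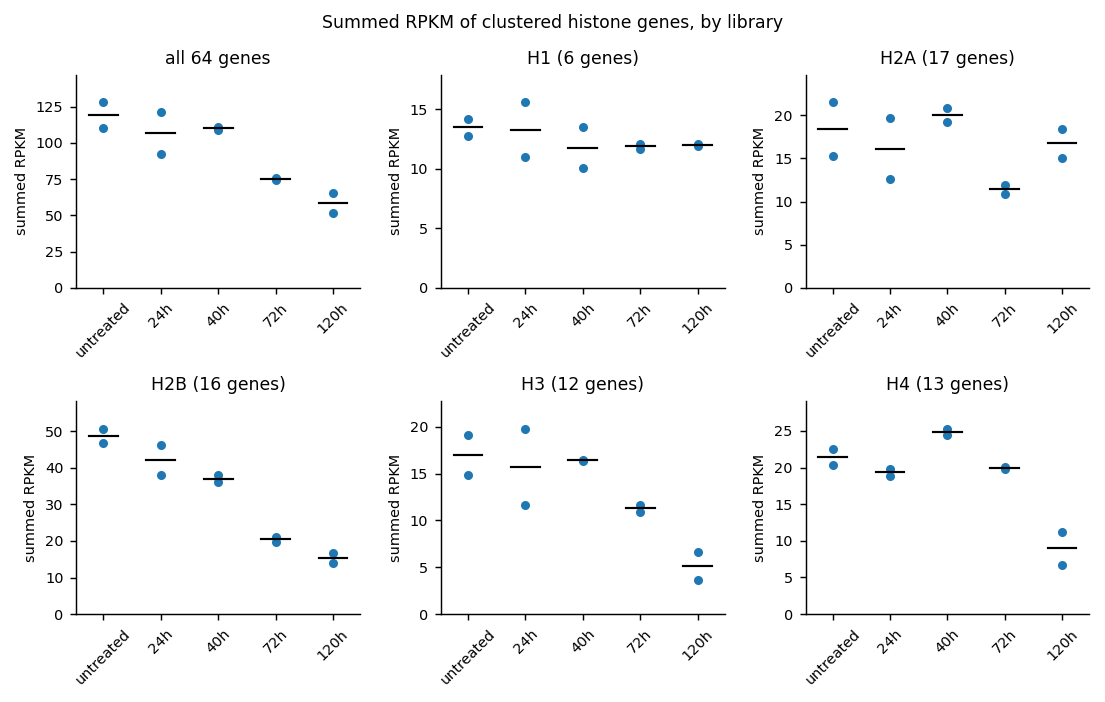
Summed RPKM of all 64 clustered histone genes and of each class, by group; points are libraries and lines are means of 2, and each axis starts at 0. The H2B mean is lower in each later group and ends at 16.8 and 14.1 RPKM in the 120h libraries, while H1 stays between 10.1 and 15.6 RPKM.

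Tests compared log2(RPKM + 1) for the 13004 genes with at least 1 RPKM in at least 2 libraries, and a gene was called at an adjusted p under 0.05. The filter kept 42 of the 64 histone genes, and none of them passed it through 1 group alone. The 22 others had no value above 1.04 RPKM in any library. Fold changes are on the log2(RPKM + 1) scale, which understates the change of genes as low as these.

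With E2 withdrawn for 120 h and not restored, histone genes of every class were lower than in untreated cells. In the 120h group 34 of the 42 tested histone genes were lower, or 81.0% of them, where 52.7% of all genes tested were lower and 80.3% changed in either direction. Only Hist2h2aa2 was called higher, where 27.5% of all genes were. The median log2 fold change of the 42 was -0.79, beside a median of -0.36 over all genes tested. Low genes set its size: with a pseudocount of 0.1 the medians were -1.61 and -0.44, and with limma voom on the recovered reads -1.78 and -0.45. When the libraries were scaled by the median of ratios, that median over all genes was -0.04, higher genes made up 48.6% of all calls in place of 34.3%, and the histone count was 31 lower and 2 higher with a median of -0.67. By class, 13 of 13 tested H2B genes, 7 of 7 H4 genes, 6 of 8 H3 genes, 6 of 10 H2A genes and 2 of 4 H1 genes were lower, and under that scaling 12, 6, 6, 6 and 1.

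On the log2(RPKM + 1) scale the largest falls were in H3 and H2B genes, while by the ratio of means the H2A gene Hist1h2ai was first, at 8.43 times more in the untreated than in the 120h group on a mean of 0.14 RPKM in the 120h group. Hist1h3c (chr13:23744973-23745602, - strand) encodes an H3 protein and had 1.23 and 0.242 RPKM in the 120h libraries against 5.12 and 3.11 RPKM in the untreated libraries. The groups did not overlap, and the gene fell by 1.59 (SE 0.31, adjusted p = 0.00149). Hist1h2bj (chr13:22043214-22043676, + strand), an H2B gene, had 1.97 and 1.16 RPKM in the 120h libraries against 6.92 and 6.32 RPKM in the untreated libraries, and its log2 fold change was -1.59 (SE 0.18, adjusted p = 6.89e-05). Hist1h3a (chr13:23761853-23762386, - strand), another H3 gene, had 0.604 and 0.277 RPKM in the 120h libraries against 3.12 and 2.79 RPKM in the untreated libraries. Both 120h libraries lay far below both untreated ones, with a log2 fold change of -1.46 (SE 0.19, adjusted p = 0.000139). Replicate 2 of the 120h group was the lower one in all 3 genes.

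Among the H4 genes, which all encode the same core protein, Hist1h4d (chr13:23581598-23582735, + strand) had 1.14 and 0.715 RPKM in the 120h libraries against 3.11 and 3.49 RPKM in the untreated libraries, a log2 fold change of -1.16 (SE 0.13, adjusted p = 5.33e-05). Hist1h4h fell by 0.93 (SE 0.17, adjusted p = 0.000839) and Hist1h4m by 0.77 (SE 0.18, adjusted p = 0.00424). Of the remaining H3 genes, Hist1h3g fell by 0.84 (SE 0.14) and Hist1h3i by 0.92 (SE 0.21), with adjusted p of 0.000613 and 0.00338. Among the H2A genes Hist1h2ab fell by 0.97 (SE 0.20) and Hist1h2ag by 0.88 (SE 0.21), with adjusted p of 0.00221 and 0.00432. All of these groups were apart in RPKM, with both 120h libraries below both untreated ones, as in 57.6% of all genes tested.

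The linker histones divided. Hist1h1a had 0.251 and 0.322 RPKM in the 120h libraries against 1.34 and 0.989 RPKM in the untreated libraries, and fell by 0.75 (SE 0.11, adjusted p = 0.000285). Hist1h1d fell by 0.52 (SE 0.14, adjusted p = 0.00947), a call that scaling by the median of ratios moved to an adjusted p of 0.0547. Hist1h1e, with 2.16 and 1.52 RPKM in the 120h libraries against 3.18 and 3.03 RPKM in the untreated libraries, missed the threshold (adjusted p = 0.0705). Hist1h1c (chr13:23738808-23740367, + strand), the most abundant of the clustered linker histones, had 8.62 and 9.21 RPKM in the 120h libraries against 7.54 and 7.13 RPKM in the untreated libraries. Its groups did not overlap, yet its log2 fold change of 0.25 (SE 0.13, adjusted p = 0.095) was not called as deposited, and it was called at 0.61 (adjusted p = 0.00259) after scaling by the median of ratios.

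Hist2h2aa2 (chr3:96239749-96240276, - strand), an H2A gene of the chromosome 3 cluster, was the only histone gene called higher than untreated as deposited. It had 9.38 and 8.18 RPKM in the 120h libraries, against 1.46 and 1.92 RPKM in the 72h libraries and 2.10 and 1.76 RPKM in the untreated libraries. Its log2 fold changes against the untreated and the 72h group were 1.74 (SE 0.19, adjusted p = 5.13e-05) and 1.86 (SE 0.19, adjusted p = 4.23e-05). Both changes kept their direction and their call under every alternative tried. All of its 50-base windows recur in its neighbour Hist2h2aa1 (chr3:96245497-96246082, + strand), so the 2 are uncertain as single genes. Hist2h2aa1 was listed at 0.963 and 0.782 RPKM in the 120h libraries against 0.242 and 0.213 RPKM in the untreated libraries, below the filter, as was Hist2h3c1 of the same cluster, an H3 gene with 0.415 and 0.78 RPKM in the 120h libraries against 0.253 and 0.34 RPKM in the untreated libraries. A noncoding gene on the opposite strand, Gm20632, covers all 528 bases of Hist2h2aa2 and had 2.50 and 2.26 RPKM in the 120h libraries against 0.649 and 0.589 RPKM in the untreated libraries. The use of strand in counting is not given in the sources used here, so reads of Hist2h2aa2 and of this partner cannot be told apart. The same holds for Hist2h2aa1, of which Gm20633 covers all 586 bases on the opposite strand. Gm20633 had 0.669 and 0.674 RPKM in the 120h libraries against 0.237 and 0.2 RPKM in the untreated libraries. Another gene, Gm20634, covers all 1820 bases of Hist2h3c1 and 529 bases of Hist2h2aa1 on their own strand. Reads there cannot be told apart from those of Gm20634, whatever the use of strand. Gm20634 had 0.569 and 0.86 RPKM in the 120h libraries against 0.252 and 0.315 RPKM in the untreated libraries.

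**Figure D2:**
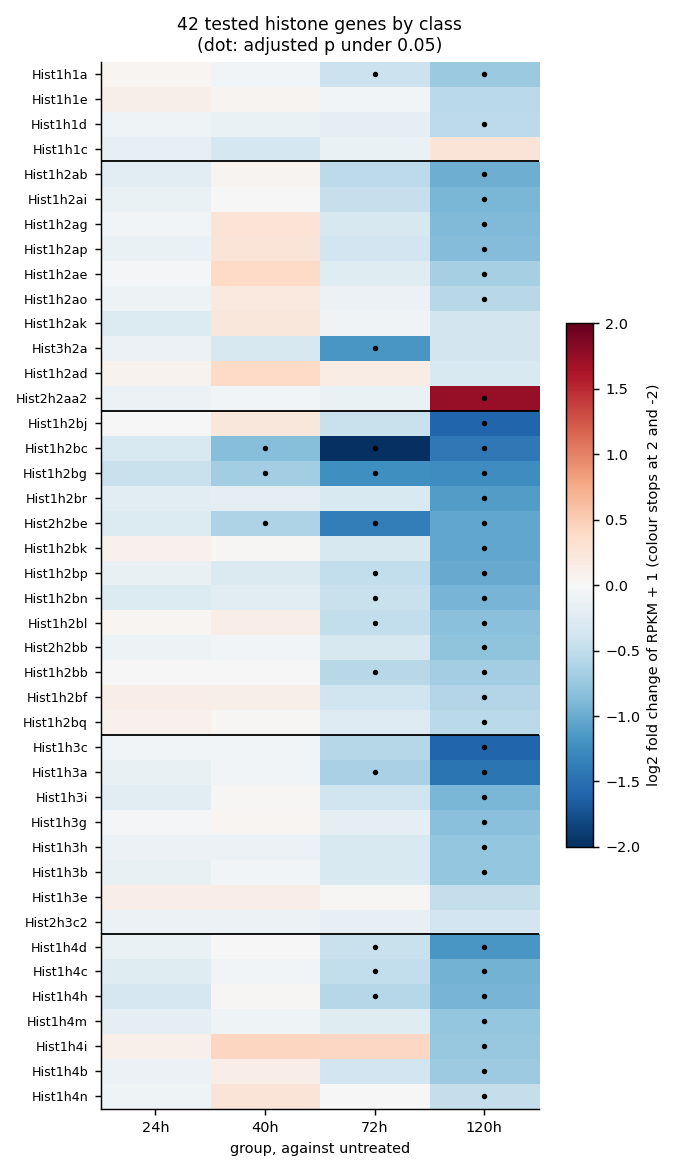
Log2 fold change against untreated on the log2(RPKM + 1) scale for the 42 tested histone genes, by class and by group, from 24h to 120h; dots mark an adjusted p under 0.05. Blue (lower) fills the 120h column except at Hist2h2aa2 and Hist1h1c, and 3 H2B genes are marked from the 40h column on.

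With E2 withdrawn for 72 h and restored for 48 h, the decline was smaller, and H2B was the class with the most called genes. In the 72h group 13 of the 42 histone genes were lower (31.0%, where 22.3% of all genes were lower) and 0 were higher (where 21.6% of all genes were higher), and 43.9% of all genes changed in either direction. The median of the 42 was -0.35, beside 0.02 over all genes tested. Of the 13, 7 encode H2B, 3 encode H4, and 1 each encodes H1, H2A and H3. H2B was also the largest tested class, with 13 genes. The class medians were -0.45 for H2B, -0.38 for H4, -0.30 for H3, -0.28 for H2A and -0.16 for H1. The count rested on single libraries: it was 5 without replicate 1 of the untreated group, 6 without replicate 2 of the 72h group, and 21 (20 lower and 1 higher) without replicate 1 or without replicate 2 of the 120h group, which shares the estimate of the spread.

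The deepest falls at 72 h belonged to 3 H2B genes and 1 H2A gene. Hist1h2bc (chr13:23684199-23692908, + strand) had 2.73 and 2.83 RPKM in the 72h libraries and 4.46 and 4.95 RPKM in the 120h libraries, against 15.2 and 13.5 RPKM in the untreated libraries. Its 72h level was thus 0.194 of the untreated mean, and its log2 fold change was -2.02 in the 72h group (SE 0.13, adjusted p = 9.37e-06) and -1.43 in the 120h group (SE 0.13, adjusted p = 1.56e-05). Hist2h2be (chr3:96221119-96223738, + strand) had 2.02 and 2.55 RPKM in the 72h libraries and 3.10 and 3.26 RPKM in the 120h libraries, against 7.6 and 7.58 RPKM in the untreated libraries. It fell by 1.39 in the 72h group (SE 0.12, adjusted p = 4.9e-05) and by 1.04 in the 120h group (SE 0.12, adjusted p = 6.47e-05). In both genes the 72h libraries were the lowest of all 10 and the 120h libraries the next, with no overlap between groups.

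Hist1h2bg (chr13:23571396-23572013, + strand) had 1.95 and 1.38 RPKM in the 72h libraries and 1.73 and 1.49 RPKM in the 120h libraries, against 5.15 and 5.18 RPKM in the untreated libraries. The 72h and 120h ranges overlapped, and both were lower than untreated, by 1.22 (SE 0.12, adjusted p = 0.000116) and 1.24 (SE 0.12, adjusted p = 2.57e-05). Hist3h2a (chr11:58954685-58956830, + strand), an H2A gene, had 1.78 and 1.70 RPKM in the 72h libraries and 3.37 and 4.21 RPKM in the 120h libraries, against 5.76 and 4.62 RPKM in the untreated libraries. It fell by 1.17 in the 72h group (SE 0.17, adjusted p = 0.00105), while the 120h change of -0.37 missed the threshold (adjusted p = 0.0815). Hist3h2a shares 708 bases on the same strand with a transcript of Trim17, and the Trim17 transcript used for that gene, which starts beyond it, had 0.077 to 0.175 RPKM in the 10 libraries.

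Hist1h4i (chr13:22040636-22041362, - strand), the most abundant H4 gene, stood apart from the falling genes in the groups that got E2 back. It had 8.04 and 7.45 RPKM in the untreated libraries, 8.21 and 8.47 RPKM in the 24h libraries, 11.2 and 10.4 RPKM in the 40h libraries, 9.95 and 11.5 RPKM in the 72h libraries, and 5.12 and 3.33 RPKM in the 120h libraries. Its 40h and 72h libraries lay above all untreated ones and its 120h libraries below them. The log2 fold change of 0.42 in the 72h group missed the threshold (SE 0.15, adjusted p = 0.055), by a margin that other fits crossed. In the 120h group it fell by 0.76 (SE 0.15, adjusted p = 0.00163).

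**Figure D3:**
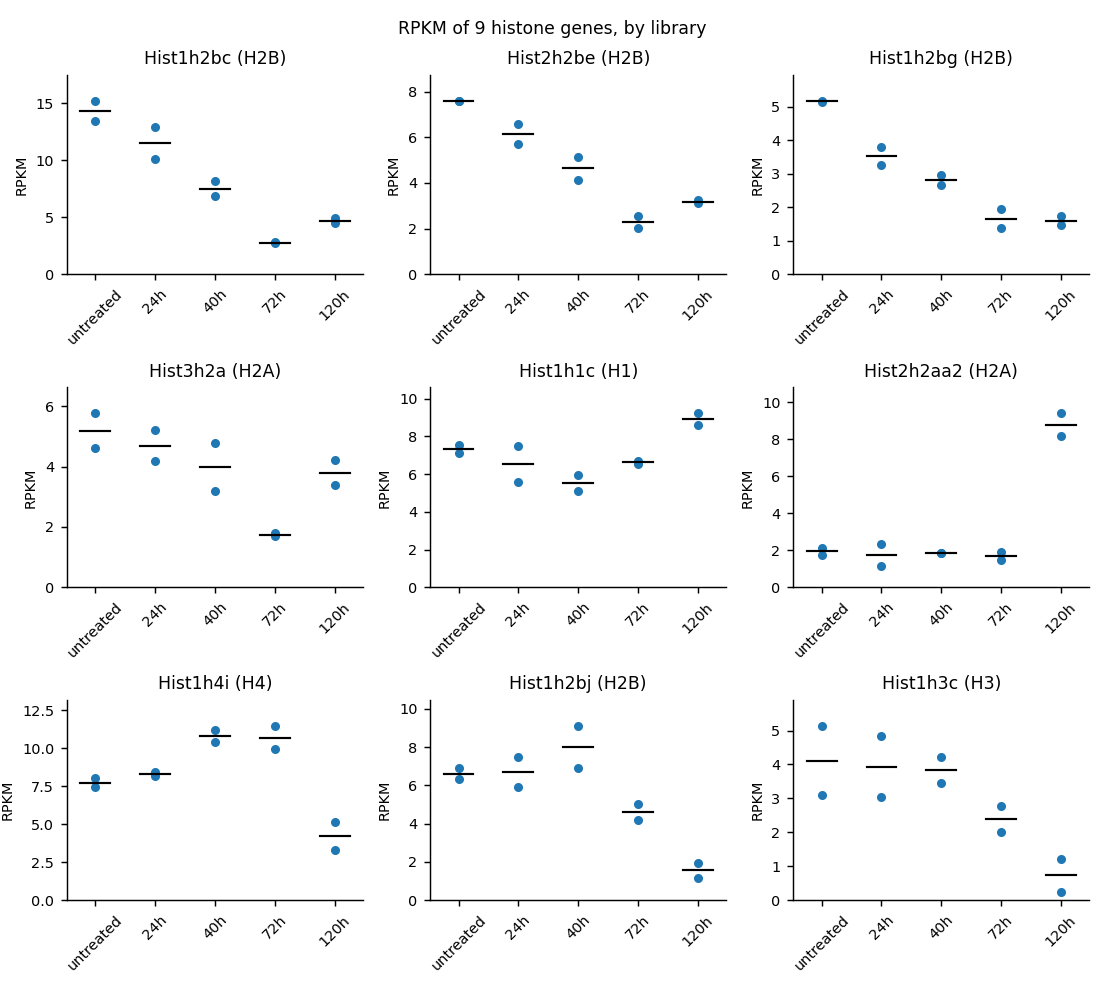
RPKM in each library (points) and group means of 2 (lines) for 9 histone genes, untreated to 120h; each axis starts at 0 and has its own scale. Hist1h2bc, Hist2h2be and Hist3h2a are lowest in the 72h group, Hist2h2aa2 is high only in the 120h libraries (9.38 and 8.18 RPKM), and Hist1h4i is highest in the 40h and 72h groups.

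At 40 h without E2 followed by 80 h with it, 3 histone genes were lower (7.14%, where 3.35% of all genes were lower) and 0 were higher (where 0.93% of all genes were), and 4.28% of all genes changed in either direction. By limma, 7 of the 42 had an unadjusted p under 0.05, beside 2428 of the 13004 genes tested, a share no smaller than that of the histone genes, while limma voom, run on the recovered reads, gave 3 lower and 0 higher. The 3 were the H2B genes that were lowest at 72 h. Hist1h2bc had 6.86 and 8.14 RPKM in the 40h libraries against 15.2 and 13.5 RPKM in the untreated libraries, a log2 fold change of -0.85 (SE 0.13, adjusted p = 0.0122). Hist1h2bg fell by 0.69 (SE 0.12, adjusted p = 0.0205) and Hist2h2be by 0.61 (SE 0.12, adjusted p = 0.0311). In each of the 3 genes both 40h libraries lay below both untreated ones, as in 33.3% of all genes tested. The median of the 42 was 0.01. These calls rested on few libraries: 0 were left without either untreated library or without replicate 1 of the 40h group, and 1 without replicate 2 of the 40h group.

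At 24 h without E2 followed by 96 h with it, 0 of the 42 histone genes were called by limma, where 0.0% of all genes were called, and limma voom also called 0. At an unadjusted p under 0.05 stood 2 of the 42, and 365 of all genes. Hist1h2bg was the lowest in fold change, with 3.81 and 3.25 RPKM in the 24h libraries against 5.15 and 5.18 RPKM in the untreated libraries. Replicate 2 of the 24h group held less histone RNA than replicate 1, with 12.6 against 19.7 RPKM summed over H2A and 11.7 against 19.8 RPKM summed over H3.

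Set against the 40h group, the 72h group again showed lower histone genes. Lower in the 72h group were 15 of the 42 (35.7%, where 13.8% of all genes were lower), and 0 were higher (where 13.9% of all genes were higher), and 27.7% of all genes changed in either direction. The median was -0.36, beside 0.02 over all genes. By class, 7 H2B, 4 H4, 3 H2A and 1 H1 genes were lower and 0 of 8 H3 genes; the H3 median was -0.24. Hist1h2bc fell by 1.17 (SE 0.13, adjusted p = 0.000358), Hist3h2a by 0.85 (SE 0.17, adjusted p = 0.00855) and Hist2h2be by 0.78 (SE 0.12, adjusted p = 0.00196). Hist1h2bj had 5.02 and 4.19 RPKM in the 72h libraries against 9.09 and 6.93 RPKM in the 40h libraries, and fell by 0.68 (SE 0.18, adjusted p = 0.0282). The count was 20 without replicate 1 or without replicate 2 of the 120h group and 21 with only the 2 groups in the fit, and it was 9 with limma voom, 5 without replicate 1 and 6 without replicate 2 of the 40h group, and 4 without replicate 2 of the 72h group. As the 72h group differs from the 40h group both in time without E2 and in time with E2 restored, the 2 cannot be told apart.

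Between the 120h and 72h groups the family divided. In the 120h group 25 of the 42 were lower (59.5%, where 51.0% of all genes were lower) and 5 were higher (11.9%, where 26.4% of all genes were higher), and 77.4% of all genes changed in either direction, with a median of -0.46 beside -0.32 over all genes. Scaling by the median of ratios brought the median over all genes to -0.0 and left 9 lower and 5 higher with a histone median of -0.33, and with higher genes at 52.1% of all calls in place of 34.1%. The 5 higher genes were Hist2h2aa2, Hist3h2a, Hist1h2bc, Hist1h1c and Hist2h2be. Hist3h2a was 0.80 higher (SE 0.17, adjusted p = 0.00298), Hist1h2bc 0.59 (SE 0.13, adjusted p = 0.00293), Hist1h1c 0.38 (SE 0.13, adjusted p = 0.0225) and Hist2h2be 0.35 (SE 0.12, adjusted p = 0.0249). In all 5 both 120h libraries lay above both 72h ones, as they did in 29.5% of all genes tested. The calls of Hist1h1c and Hist2h2be were lost without replicate 1 of the 72h group and without replicate 2 of the 120h group. That of Hist1h1c was also lost without replicate 2 of the 72h group. The lowest were Hist1h4i, with 5.12 and 3.33 RPKM in the 120h libraries against 9.95 and 11.5 RPKM in the 72h libraries and a fold change of -1.18 (adjusted p = 0.000146, SE 0.15), and Hist1h2bj at -1.14 (SE 0.18, adjusted p = 0.000558). Hist1h3c was at -1.02 (adjusted p = 0.0159), and at -0.83 after scaling by the median of ratios (adjusted p = 0.0513). Leaving out 1 library gave 3 higher and 9 lower without replicate 1 of the 72h group, 4 higher and 13 lower without replicate 2 of the 72h group, and 3 higher and 11 lower without replicate 2 of the 120h group.

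Of the 5 genes higher in the 120h than in the 72h group, 3 have long transcripts ending in a poly(A) signal. Of the 27 tested histone genes listed with the annotated transcript version, the 3 with AATAAA in the last 60 bases (Hist1h1c, Hist2h2be and Hist3h2a, shown above) were all called higher, with a median of 0.38. Of the 24 without it, 1 was called higher (Hist2h2aa2) and 18 lower, with a median of -0.47. The same 3 genes are the only ones of the 27 with at least 800 bases after the stop codon, so the signal and the length cannot be told apart. With the other transcript versions included, where the deposited length often differs from the annotated one, 3 of 4 tested genes with the signal were higher and 1 was lower, and 2 of 38 tested genes without it were higher and 24 lower. In all, 8 members with the signal were listed with the annotated version, and those below the filter did not all rise. Ratios of the 120h to the 72h mean were 0.378 for Hist1h4a, 0.549 for Hist1h4j, 0.752 for Hist2h4 and 4.24 for Hist2h3c1. Hist3h2ba was at 0 in both 72h libraries and at 0.019 and 0.016 RPKM in the 120h libraries. Hist2h4 and Hist2h3c1 have 1311 and 1208 bases after the stop codon. The 12 tested genes without a stem-loop and the 30 with one gave medians of -0.40 and -0.47. Of the 12, 9 have no base after the stop codon in the annotation, so no stem-loop could be found in them. These medians thus cannot show whether a stem-loop goes with the change. The grouping by transcript end was chosen with these values known.

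**Figure D4:**
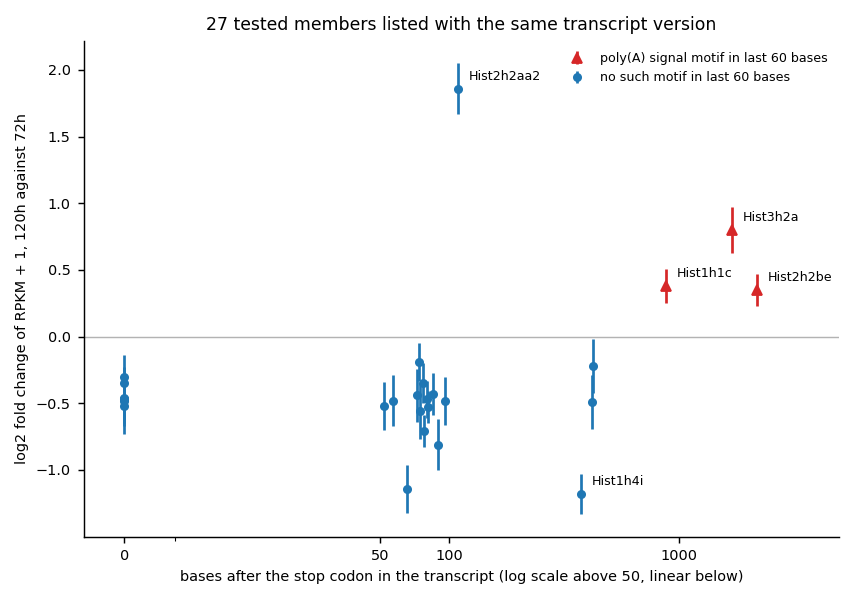
Log2 fold change of RPKM + 1 in the 120h group against the 72h group (points, with SE bars) against the bases after the stop codon, for the 27 tested histone genes listed with the annotated transcript version; triangles hold a poly(A) signal motif in the last 60 bases. The 3 triangles lie above 0 at 0.35 to 0.80 and at 880 to 2192 bases, and Hist2h2aa2 at 1.86 is the other point above 0.

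Among the H2A and H2B genes, 11 pairs lie head to head, 175 to 301 bases apart, and so share 1 promoter region. The H2B partner of Hist2h2ac is Hist2h2be, 238 bases away, and untreated means were 7.59 RPKM for Hist2h2be and 0.284 RPKM for Hist2h2ac. Hist1h2bc and Hist1h2ac, 250 bases apart, had untreated means of 14.3 and 0.348 RPKM, and Hist1h2bg and Hist1h2ae, 175 bases apart, had 5.17 and 0.892 RPKM. In the 120h group Hist1h2bg fell by 1.24 and Hist1h2ae by 0.67, while in the 72h group Hist1h2bg fell by 1.22 and Hist1h2ae had a log2 fold change of -0.25 that was not called. In the pair of Hist1h2bj and Hist1h2ag, 269 bases apart, the 120h falls were 1.59 and 0.88. Other pairs ranged from uneven to nearly even in their 120h log2 fold changes on this log2(RPKM + 1) scale. Those of Hist1h2bn and Hist1h2ak were -0.93 and -0.37, and those of Hist1h2bf and Hist1h2ad were -0.59 and -0.31. The changes of Hist1h2ak and Hist1h2ad were not called. For Hist1h2br and Hist1h2ap the values were -1.11 and -0.86. The pairs given next were closer to even. Hist1h2bl and Hist1h2ai, 278 bases apart, had untreated means of 1.13 and 1.18 RPKM and 120h falls of 0.84 and 0.92. Hist1h2bq and Hist1h2ao had log2 fold changes of -0.54 and -0.55. The scale shrinks the fall of the lower gene of a pair. Ratios of the 120h to the untreated mean were 0.311 for Hist1h2bg and 0.207 for Hist1h2ae. They were 0.236 for Hist1h2bj and 0.242 for Hist1h2ag, and 0.173 for Hist1h2bl and 0.119 for Hist1h2ai. For Hist1h2bq and Hist1h2ao they were 0.522 and 0.3. The ratios were 0.318 for Hist1h2bn and 0.535 for Hist1h2ak, 0.352 for Hist1h2bf and 0.508 for Hist1h2ad, and 0.215 for Hist1h2br and 0.24 for Hist1h2ap. The difference between partners was not tested.

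Promoter sequences of RefSeq (GRCm38.p6, from 250 bases before to 50 after the start) matched 59 of the 64 genes. An octamer, ATTTGCAT on either strand, which POU factors such as Pou2f1 bind, stood in 18.6% of them and in 1.74% of all 32851 promoters. It stood in 6 of 17 H2A and 5 of 14 H2B promoters and in 0 of the H1, H3 and H4 promoters. CCAAT on either strand stood in 84.7% of the histone promoters and 37.4% of all promoters, in 3 of 12 H4 promoters and every matched promoter of the other classes. TATAAA on either strand stood in 57.6% of the histone promoters and in 13.6% of all promoters. Head-to-head genes share part of their windows, so these shares count some bases 2 times. The window of Hist2h2ac reaches the start of Hist2h2be and so covers their shared region, that of Hist3h2a holds an octamer too, and that of Hist1h4i holds TATAAA but neither of the others. The motifs are in capitals.
Hist2h2ac (chr3:96220831-96221130, - strand): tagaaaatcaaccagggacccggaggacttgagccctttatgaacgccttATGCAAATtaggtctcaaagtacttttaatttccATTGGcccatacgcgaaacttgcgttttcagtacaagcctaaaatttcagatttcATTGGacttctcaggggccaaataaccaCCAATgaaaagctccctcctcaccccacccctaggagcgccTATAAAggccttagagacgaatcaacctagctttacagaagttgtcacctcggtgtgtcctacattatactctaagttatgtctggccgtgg
Hist3h2a (chr11:58954435-58954734, + strand): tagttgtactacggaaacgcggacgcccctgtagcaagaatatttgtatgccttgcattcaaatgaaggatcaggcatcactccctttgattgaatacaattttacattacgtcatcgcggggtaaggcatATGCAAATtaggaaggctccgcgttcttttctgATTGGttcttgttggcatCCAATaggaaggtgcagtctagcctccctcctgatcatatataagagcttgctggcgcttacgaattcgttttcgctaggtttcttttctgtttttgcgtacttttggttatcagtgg
Hist1h4i (chr13:22041313-22041612, - strand): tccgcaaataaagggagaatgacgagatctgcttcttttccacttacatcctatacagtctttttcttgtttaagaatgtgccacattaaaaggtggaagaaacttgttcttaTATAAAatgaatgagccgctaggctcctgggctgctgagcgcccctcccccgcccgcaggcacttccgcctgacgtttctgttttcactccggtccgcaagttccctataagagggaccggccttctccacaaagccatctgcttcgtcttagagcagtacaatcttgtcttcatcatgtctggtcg
A match describes these letters and does not show that a factor binds there.

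Genes that serve histones or DNA replication did not all move with the clustered genes. Their counts stand beside 52.7% lower and 27.5% higher of all genes in the 120h group, and 22.3% lower and 21.6% higher in the 72h group. Of 33 DNA replication genes, 33 were lower in the 120h group (median -1.55), while in the 72h group 1 was higher and 1 was lower (median -0.03). Pcna, the replication clamp, averaged 214 ± 5.55 RPKM in the 72h group and 218 ± 2.84 RPKM in the untreated group (SD, n = 2 each). Mcm7, a subunit of the replicative helicase, averaged 71.0 ± 34.6 RPKM in the 120h group and 265 ± 4.87 RPKM in the untreated group and fell by 1.98 (SE 0.27, adjusted p = 0.000177). In the 72h group the clustered histone genes thus had a median of -0.35 beside -0.03 for the DNA replication genes. The difference of the 2 lists was not tested. In the 120h group their medians were -0.79 and -1.55, but the log2(RPKM + 1) scale shrinks the change of genes as low as the histones. With a pseudocount of 0.1 the 120h histone median was -1.61, so the sizes of the falls cannot be ranked between the histones and the other lists.

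Of 22 genes for the transcription, processing and decay of histone mRNA, 16 were lower and 0 higher in the 120h group (median -0.56), while 5 were higher and 2 lower in the 72h group (median 0.14), the higher share being near that of all genes. Npat was 0.35 higher in the 72h group (SE 0.10, adjusted p = 0.0229), and Casp8ap2, which also serves histone gene expression, was 0.46 higher (SE 0.10, adjusted p = 0.00748). Lsm10, a protein of the U7 particle that cuts the histone 3′ end, averaged 8.56 RPKM in the 72h group and 15.5 RPKM in the untreated group and fell by 0.79 (SE 0.10, adjusted p = 0.000416). Slbp, the stem-loop binding protein, averaged 74.7 ± 2.03 RPKM in the 72h group and 69.5 ± 0.235 RPKM in the untreated group, with an adjusted p of 0.618, and in the 120h group it fell by 0.55 (SE 0.15, adjusted p = 0.00994). Lsm11, the partner of Lsm10, fell by 0.92 in the 120h group (SE 0.11, adjusted p = 6.37e-05).

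Of 22 histone chaperones, 17 were lower and 1 higher in the 120h group (median -1.12), and 1 was lower and 2 higher in the 72h group (median 0.02). Chaf1b, a subunit of the factor that loads histones onto new DNA, averaged 26.0 ± 2.48 RPKM in the 72h group and 46.6 ± 0.725 RPKM in the untreated group and fell by 0.82 (SE 0.20, adjusted p = 0.013). Nap1l1, a carrier of H2A and H2B, averaged 78.9 ± 30.5 RPKM in the 120h group and 323 ± 12.2 RPKM in the untreated group and fell by 2.08 (SE 0.22, adjusted p = 3.98e-05).

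The replication-independent histones, whose genes lie outside the clusters and whose mRNAs mostly carry a poly(A) tail, were far more abundant per length. Any part that choosing RNA by its poly(A) tail had in this contrast was not tested. The 11 listed genes of this set summed to 937 and 705 RPKM in the 120h libraries. They summed to 1280 and 1190 RPKM in the 72h libraries, and to 1700 and 1660 RPKM in the untreated libraries. In the 120h group 7 of the 10 tested were lower and 1 was higher (median -1.12), and in the 72h group 5 were lower and 1 higher (median -0.38). H1fx, a linker histone, averaged 2.36 ± 0.895 RPKM in the 120h group and 4.63 ± 0.416 RPKM in the 72h group, against 23.0 ± 1.10 RPKM in the untreated group. It fell by 2.86 in the 120h group (SE 0.20) and by 2.09 in the 72h group (SE 0.20). H3f3a, which encodes the H3.3 variant, had 164 and 149 RPKM in the 72h libraries against 270.3 and 256 RPKM in the untreated libraries, and fell by 0.75 (SE 0.10, adjusted p = 0.000626). In the 120h group H3f3a averaged 258 ± 18.9 RPKM and its adjusted p against the untreated group was 0.802. H2afy2, a macroH2A gene, averaged 2.04 ± 0.274 RPKM in the 120h group and 0.0925 ± 0.00919 RPKM in the untreated group and was 1.47 higher (SE 0.09).

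**Figure D5:**
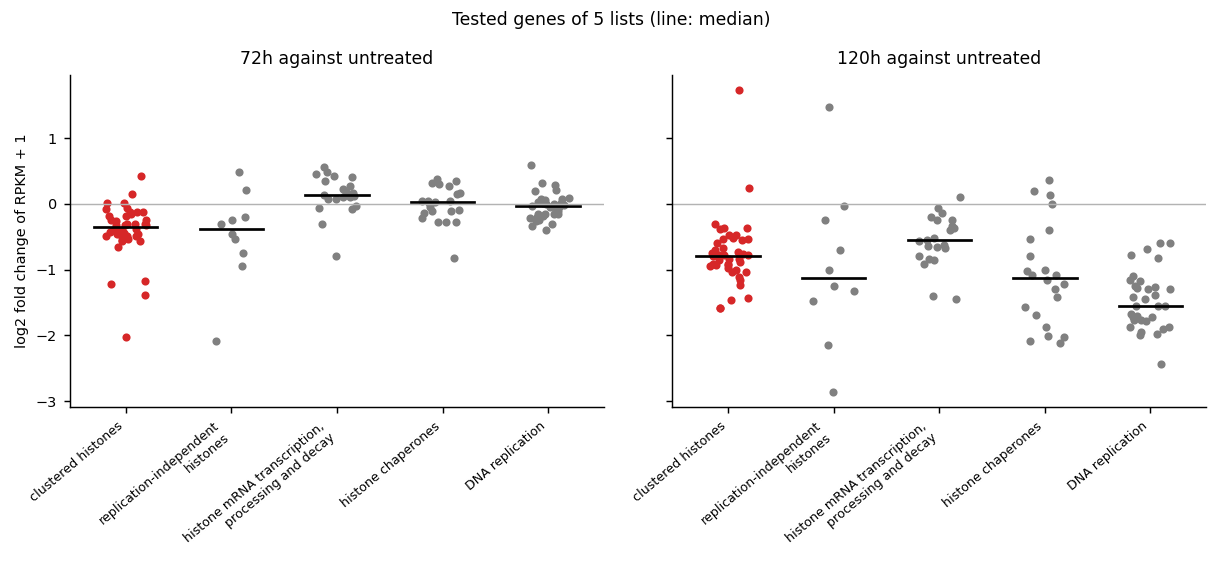
Log2 fold change of RPKM + 1 for the tested genes (points) of 5 lists, in the 72h group and in the 120h group against untreated; lines are medians. DNA replication genes have a median of -0.03 in the 72h group and -1.55 in the 120h group, and the clustered histones -0.35 and -0.79. The scale understates the change of the low histone genes, whose 120h median was -1.61 with a pseudocount of 0.1.

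The testis members were at or near 0. Hist1h1t, the testis linker histone, was at 0 in 9 libraries and at 0.007 RPKM in replicate 1 of the 72h group, and Hist1h2ba, a testis H2B, was at 0 in 9 libraries and at 0.029 RPKM in replicate 1 of the 24h group. Many members are near copies: 31 of the 64 share at least 50% of their 50-base windows with another member and 7 share none, so the authors' counting could have split or doubled reads among them. Of the genes described above, Hist2h2be shares no window, Hist3h2a 2.0% and Hist1h1c 8.5%, while Hist1h2bj shares 59.4%, Hist1h2bg 49.7%, Hist1h3c 47.0% and Hist1h2bc 29.3%. Shares of 78.9% to 100% were found for Hist1h2ag, Hist1h2bl, Hist1h2ai, Hist1h2bn, Hist1h3i, Hist1h4m, Hist1h2ap, Hist1h2ao, Hist1h2br and Hist1h2bq. Results given above for these as single genes, in the head-to-head pairs too, are thus uncertain. Another annotated gene overlaps 23 of the 64, on the opposite strand for 20.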

How the data were processed

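RNA was sequenced in 10 libraries, 5 groups of 2 by their titles. The authors deposited RPKM per Ensembl transcript, per the file headers. The submitters' processing notes list STAR and GRCm38. Not given in the sources used here are the counting program, annotation release, use of strand and STAR's version. Of 79535 transcripts, 77720 (97.7%) matched GENCODE M21 without regard to version, and the rest held 2.64 to 3.24% of RPKM. Of the 64 histone genes, 43 were listed with the annotated version, and for 19 of the 21 others the deposited length was recovered from the steps between low values (16 were shorter). Those steps gave whole reads within 0.1 reads and each library's denominator.

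Genes reaching 1 RPKM in 2 or more libraries (13004) entered a limma model (version 3.58.1, R 4.3.3) of log2(RPKM + 1), with group as the only term and a trended prior. The 10 libraries shared their variance estimate, with 5 residual degrees of freedom and a prior worth 3.04. Tests were 2-sided, with Benjamini-Hochberg adjustment over all genes of a comparison and calls under 0.05. The code was tested on simulated data. Named genes were the 4 most abundant members of each class, the 4 highest and 4 lowest called members of each comparison, testis members, and of each other list up to 4 called genes with the largest change and up to 2 others with the highest RPKM; the text gives a selection. A gene of another list named in 1 comparison is also given in others. Hist2h2aa1, Hist2h2ac, Hist1h2ac, Hist1h2ae, Hist2h3c1, Hist1h2ai, Hist1h2ao, Hist1h2bl, Hist1h2bq, Slbp, Pcna, the markers and the overlapping genes, where outside that rule, were added after their values were seen. So were Hist1h2ad, Hist1h2ak, Hist1h2ap, Hist1h2bf, Hist1h2bn, Hist1h2br, Hist1h4a, Hist1h4j, Hist2h4 and Hist3h2ba. The members, lists and tests were chosen with earlier results of these data known. Alternatives were the pseudocount, the filter, 2 scalings, the replicate block, other fits, another transcript and leaving out each library.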

Additional observations from a re-analysis of the deposited data

How the results depend on the processing

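None of the called counts or called fold changes followed changed sign under an alternative. Some fold changes that were not called did, as did the medians nearest 0: that of the 40h group, 0.01, was -0.1 without replicate 2 of the untreated group, -0.01 without replicate 1 and -0.02 without replicate 2 of the 40h group, and that of the 24h group, -0.12, was 0.06 without replicate 2 of the 24h group and 0.01 without replicate 1 of the untreated group. Of the 120 fold changes followed (named histone genes in each comparison), 964 repeats under other settings stayed on the same side of the threshold, 40 lost the call and 36 gained it, and with 1 library left out the numbers were 1085, 75 and 40. The counts of called histone genes stayed within 1.5 times for the 120h against untreated comparison under every alternative tried (31 to 41). In the 72h against untreated comparison, 13 became 22 with the replicate block, 20 with only the 2 groups in the fit, 21 without the whole 120h group (chosen after seeing the data) and 5 to 21 with 1 library left out. In the 40h against untreated comparison, 3 became 1 without the filter and 0 to 4 with 1 library left out. In the 72h against 40h comparison, 15 became 7 without the filter, 9 with limma voom on recovered reads and 4 to 20 with 1 library left out. In the 120h against 72h comparison, 30 became 14 with scaling by the median of ratios, 16 with quantile normalization and 12 to 29 with 1 library left out. The cause was not tested. Same-numbered libraries correlated in their deviations at 0.03 to 0.64 over 10 pairs of groups, all positive and 8 of them over 0.1. The labels give no shared batch or day, and the numbers were taken to pair samples only if every correlation was over 0.1, so the main results have no block; the values under it were 0.09 (untreated with 40h) and 0.03 (untreated with 72h). With the replicate block the counts were 37, 22, 3, 0, 22 and 33 for 120h, 72h, 40h and 24h against untreated, 72h against 40h and 120h against 72h. Hist1h4i was called higher in the 72h than in the untreated group with the block (adjusted p = 0.0495) and without the whole 120h group (adjusted p = 0.00281). With the block Hist1h3a and Hist1h3c were called lower in the 72h than in the 40h group (adjusted p = 0.0146 and 0.03). A tested histone gene had a median of 120 reads in a library, which limits precision, as do 2 libraries a group.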
